A study of Mus musculus with 8 samples.

Results

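The main effect of EZM8266 was taken as the difference between the 4 libraries whose cells had received EZM8266 and the 4 whose cells had not, with olaparib as a second factor in the model. All 8 libraries of the study enter this comparison. The cells were ID8-OR, derived from the mouse ovarian cancer line ID8 and resistant to olaparib, and were kept for 72 hours in 1 of 4 conditions with 2 libraries each. EZM8266, described in the series text as an EHMT1/2 inhibitor, was given alone or together with olaparib, an inhibitor of PARP enzymes (the combination). The libraries without it came from cells given olaparib alone or the solvent DMSO. Doses are not given in the sources used here. Groups follow the sample titles, and the treatment label of combination replicate 2, which reads EZM8267, was not used. The labels speak of treatment or transfection replicates and do not say whether cultures were separate. The p-values therefore rest on differences between libraries that may be technical.

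EHMT1 and EHMT2 form a complex that methylates lysine 9 of histone H3 at gene promoters and enhancers, a mark that keeps genes off. The complex is known for silencing genes of the germline and of other cell types, and in several cell systems it also holds down interferon-responsive genes. Loss of its activity is therefore usually studied as a release of silent genes, while olaparib blocks the enzymes that mark broken DNA.

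Of the 54146 gene rows in the deposited table, 6379 passed the filter on low counts and were tested. The libraries hold 973382 to 1680974 counts each, from 4.54% to 5.4% of their fragments. Between 83.8% and 88.6% of the counts lie in rows whose exons overlap, by at least 50 bases, an exon of a gene annotated on the other strand. Such a row is read here as fragments on the strand of that other gene. Below, the overlapped gene is named first, with the row in parentheses. The value is not a measurement of the whole gene, since it leaves out every exon that the row does not reach. Levels are in CPM, that is, counts scaled to a total of 1000000 over the tested rows after TMM scaling. Levels of different rows are not compared. In bulk RNA, fewer cells carrying a transcript and less of it per cell cannot be told apart.

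With EZM8266, 40 rows were higher and 7 were lower at an adjusted p under 0.05 (edgeR quasi-likelihood F test, Benjamini-Hochberg adjustment over all tested rows), which is 47 of 6379 rows or 0.737%. The higher calls are 0.627% and the lower calls 0.11% of the rows tested. Among the rows with the smallest p, the strand of Thbs1, a matrix glycoprotein, was lower, and the strands of Serpinb9b, F13a1 and Trdc were higher, which encode a protease inhibitor, a clotting factor subunit and a T cell receptor constant region. In the same model, olaparib moved 0 rows past the threshold (smallest adjusted p 0.659, with 134 rows at an unadjusted p under 0.05, against 470 for EZM8266). At an unadjusted p of 0.05, chance alone would give more than 134 and fewer than 470 of the 6379 rows. Rows with all 4 EZM8266 libraries above all 4 others made up 3.32% of those tested, and rows with all 4 below made up 2.02%. The median log2 fold change over all tested rows was -0.02. Of the called rows, 29 changed by more than 1 on the log2 scale, 26 of them higher. A thin row can pass the low-count filter through only the libraries where it is high. This favours large fold changes among thin rows.

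**Figure D1:**
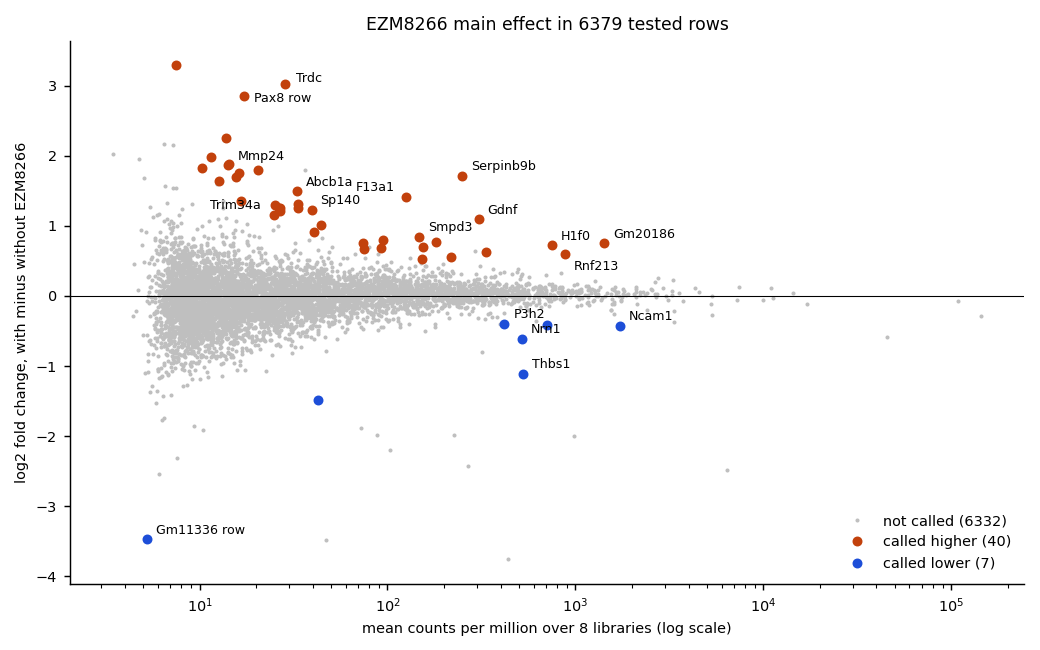
Log2 fold change of the EZM8266 main effect (vertical axis) against the mean CPM over 8 libraries (horizontal axis, log scale) for 6379 tested rows; orange points were called higher (40), blue points lower (7) and grey points were not called. The called rows lie mostly above 0, and the rows below 0 include the well-covered strands of P3h2, Nrn1, Thbs1 and Ncam1.

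The own rows of Ehmt1, Ehmt2, Parp1 and Parp2 were thinly covered and were not called. Ehmt2 (chromosome 17, 34898469 to 34914052, mm10) averaged 9.98 ± 5.55 CPM with EZM8266 and 14.7 ± 2.98 CPM without it (SD, n = 4 each), a log2 fold change of -0.61 ± 0.37 (SE) at an edgeR adjusted p of 0.788. Parp1 (chromosome 1, 180568924 to 180601254) averaged 17.1 ± 7.40 CPM with EZM8266 and 26.7 ± 7.70 CPM without it (log2 fold change -0.63 ± 0.31, edgeR adjusted p 0.685). Ehmt1 and Parp2, with 1 to 10 and 1 to 9 counts per library, did not pass the filter. No exon on the other strand overlaps these rows. They count the strand opposite to the transcript, so the values do not measure how much of these genes was expressed. Both compounds act on the enzymes, so the rows do not measure inhibition of the targets either.

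A called row reads only a stretch of the gene on the other strand, and for 17 of the 35 called rows that overlap such an exon the stretch reaches coding sequence. For 9 it lies in untranslated sequence, and for the other 9 in noncoding exons (GENCODE M21, mm10). The stretches of coding sequence are shown for Serpinb9b, the row with the smallest p. They are also shown for Thbs1, the most abundant row that fell by more than 1 on the log2 scale. The stretches mark the coding bases that each row shares with the named gene. They are given 5′ to 3′ on the strand of the named gene, in lower case with no base marked.
Serpinb9b, chr13:33032916-33033053, plus strand: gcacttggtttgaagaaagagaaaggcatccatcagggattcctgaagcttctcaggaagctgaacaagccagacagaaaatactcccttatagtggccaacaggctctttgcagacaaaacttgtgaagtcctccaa
Serpinb9b, chr13:33033527-33033644, plus strand: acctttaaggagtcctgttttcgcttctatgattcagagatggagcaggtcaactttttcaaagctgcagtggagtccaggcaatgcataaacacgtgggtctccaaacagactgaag
Thbs1, chr2:118123451-118123539, plus strand: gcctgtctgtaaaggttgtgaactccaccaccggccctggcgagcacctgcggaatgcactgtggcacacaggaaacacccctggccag
Thbs1, chr2:118123916-118124013, plus strand: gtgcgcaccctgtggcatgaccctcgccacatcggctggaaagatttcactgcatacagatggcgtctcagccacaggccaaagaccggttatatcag
The Thbs1 overlap covers 208 of the 281 exon bases of its row (74%), and the Serpinb9b overlap covers 278 of 1798 (15.5%). The counts of either row may also lie outside these stretches.

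Fragments on the strands of a serpin and of a clotting factor rose with EZM8266. Serpinb9b, an intracellular protease inhibitor related to the granzyme inhibitor Serpinb9 (Gm36099 row, chromosome 13, 33031202 to 33034560), had 362 and 441 CPM with EZM8266 and 366 and 355 CPM with the combination, against 143 and 120.35 CPM with olaparib and 111 and 92.01 CPM with DMSO. The groups are far apart, and the log2 fold change was 1.72 ± 0.13 (SE) at an edgeR adjusted p of 3.64e-06. F13a1, the A subunit of clotting factor XIII, which cross-links fibrin (Gm30489 row, chromosome 13, 36963239 to 36973329), had 174 and 197 CPM with EZM8266 and 189 and 171 CPM with the combination, against 69.2 and 73.2 CPM with olaparib and 61.7 and 69.2 CPM with DMSO. Its log2 fold change was 1.41 ± 0.11 (edgeR adjusted p 3.64e-06). The overlap with F13a1 exons is short, 74 of the 1746 exon bases of the row (4.24%), and the table does not show whether the counts lie in those bases or elsewhere in the row. The list of serpins and coagulation genes had 5 tested rows on the opposite strand, and these 2 were the ones called, while Serpinb6a, another intracellular serpin, had a log2 fold change of 0.63 ± 0.36 on 1 row and 0.05 ± 0.11 on the other. The median of the 5 rows was 0.63. Over all 3554 tested rows that overlap an opposite-strand exon, 0.985% were called in either direction. This list and the others were chosen with earlier results of these data known. Counts of calls within a list are therefore descriptions only.

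Thbs1 led the falls. Thrombospondin 1 binds other matrix proteins and activates latent TGF-beta. On its strand (Gm29233 row, chromosome 2, 118123451 to 118124047) there were 303 and 398 CPM with EZM8266 and 312 and 317 CPM with the combination, against 681 and 736 CPM with olaparib and 743 and 708 CPM with DMSO. No library with EZM8266 came near one without it, and the row fell by 1.11 ± 0.09 on the log2 scale (SE, edgeR adjusted p 7.3e-06). The row of Thbs1 itself (chromosome 2, 118111876 to 118127133) held 16 to 129 counts and fell by 1.49 ± 0.21 (edgeR adjusted p 0.0016), with 22.1 ± 6.38 CPM with EZM8266 and 62.9 ± 13.02 CPM without it (SD, n = 4 each). Both rows lie at one locus and may share a source.

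The matrix and adhesion genes moved in both directions. Of 14 tested rows on the opposite strand of list members, 2 were higher and 3 lower (median log2 fold change -0.12, against -0.02 over all tested rows). The share called among all tested rows with an opposite-strand exon was 0.985%. The rises were on the strands of Mmp24, a membrane-bound matrix protease (BC029722 row, chromosome 2, log2 fold change 1.86 ± 0.30, edgeR adjusted p 0.00469), and of Nid1, the basement membrane protein nidogen 1 (Gm48682 row, chromosome 13, 1.15 ± 0.23, adjusted p 0.0252). Mmp24 had 22.7 and 19.9 CPM with EZM8266 and 25.2 and 21.4 CPM with the combination, against 8.83 and 6.51 CPM with olaparib and 4.90 and 4.32 CPM with DMSO, which is thin cover of 5 to 30 counts. Its row passed the low-count filter only through libraries with EZM8266. Besides Thbs1, the falls were on the strands of Ncam1, the neural cell adhesion molecule (Gm11149 row, chromosome 9, fell by 0.42 ± 0.08, edgeR adjusted p 0.0107), and P3h2, a prolyl hydroxylase that modifies basement membrane collagen (Gm4524 row, chromosome 16, fell by 0.39 ± 0.08, adjusted p 0.0394). Ncam1 was well covered, with 1378.5 and 1589 CPM with EZM8266 and 1515 and 1416 CPM with the combination, against 1981 and 2009 CPM with olaparib and 2008 and 1920 CPM with DMSO. The overlap with Ncam1 is 417 of the 3198 exon bases of its row (13%), and that with Nid1 is 143 of 1209 (11.8%). P3h2 was the least stable of the called rows and kept its call in 6 of 19 other settings. Fn1, the adhesive glycoprotein fibronectin, did not pass (Apol7d row, 541 ± 42.01 CPM with EZM8266 and 692 ± 41.1 CPM without it, SD, n = 4 each, log2 fold change -0.36 ± 0.08, adjusted p 0.0667), nor did the matrix protein Tnc (8030451A03Rik row, -0.98 ± 0.25, adjusted p 0.114).

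**Figure D2:**
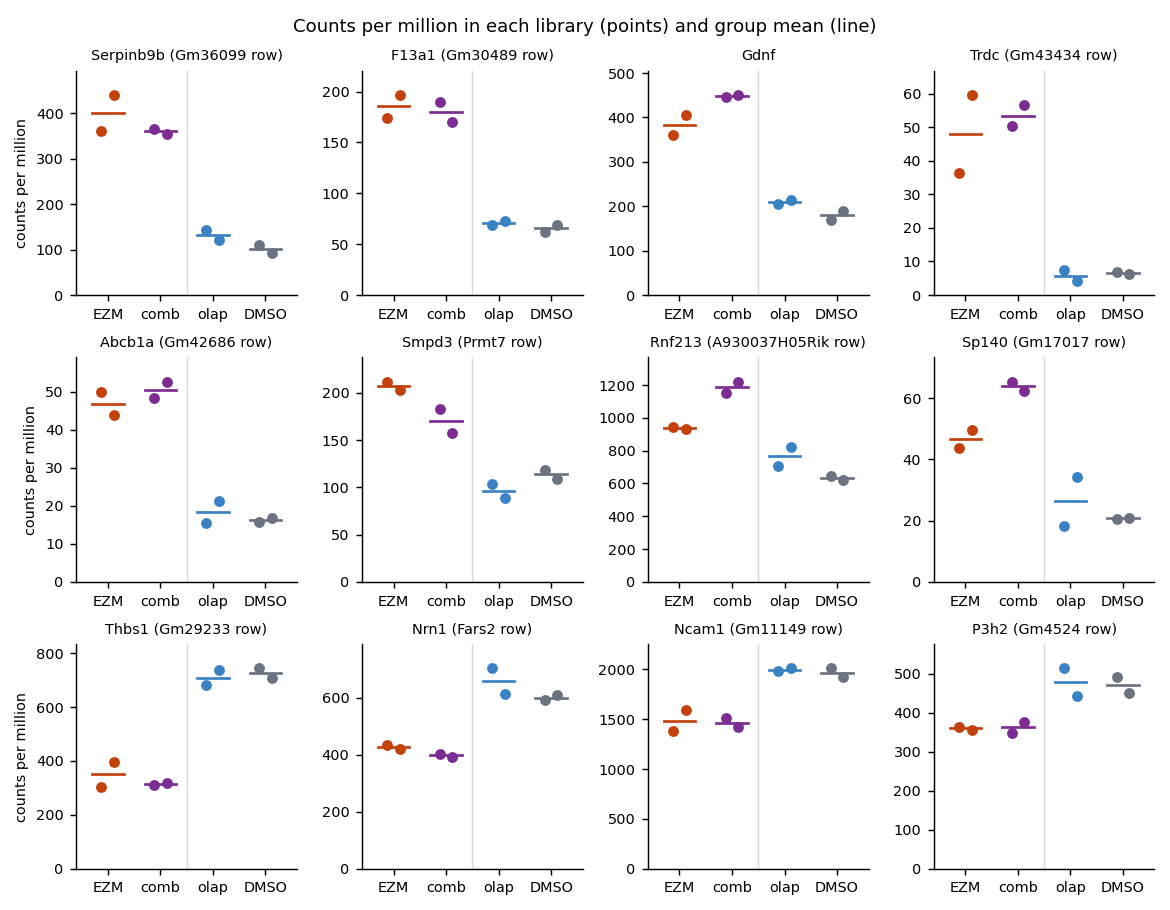
CPM in each library (points) with the group mean (line) for 12 called rows; EZM is EZM8266, comb the combination and olap olaparib, and each vertical axis starts at 0. The EZM8266 and combination points lie above all olaparib and DMSO points for Serpinb9b, F13a1, Gdnf, Trdc, Abcb1a, Smpd3, Rnf213 and Sp140, and below all of them for Thbs1, Nrn1, Ncam1 and P3h2.

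Type I interferon response genes, induced when cells sense viral nucleic acid, lay mostly above 0. On the opposite strand 11 rows were tested, and 3 were called higher and 0 lower. Of the 11 rows, 10 were above 0, and the median log2 fold change was 0.39, against -0.02 over all tested rows. Over all 3554 tested rows that overlap an opposite-strand exon, 0.985% were called in either direction, against 0.425% of the other rows. The called rows were on the strands of Rnf213, a giant ubiquitin ligase (A930037H05Rik row, chromosome 11, 119448788 to 119491298), Sp140, a nuclear body protein (Gm17017 row, chromosome 1, 85641222 to 85650585), and Cxcl10, a chemokine that attracts T cells (Art3 row, chromosome 5, 92331827 to 92414628). Rnf213 had 942 and 934 CPM with EZM8266 and 1153 and 1221 CPM with the combination, against 706 and 825 CPM with olaparib and 643 and 622 CPM with DMSO (log2 fold change 0.60 ± 0.08, SE, edgeR adjusted p 0.000924). The overlap with Rnf213 is 1476 of the 9082 exon bases of its row (16.3%). Sp140 had 43.9 and 49.7 CPM with EZM8266 and 65.5 and 62.4 CPM with the combination, against 18.4 and 34.2 CPM with olaparib and 20.6 and 21.0 CPM with DMSO (1.23 ± 0.19, adjusted p 0.00469).

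Only 133 of the 3932 exon bases of the Art3 row (3.38%) overlap Cxcl10, and the counts may lie elsewhere in that row. Cxcl10 was the called row whose groups overlapped. It had 59.8 and 74.6 CPM with EZM8266 and 123 and 113 CPM with the combination, against 72.8 and 63.4 CPM with olaparib and 38.2 and 52.5 CPM with DMSO, so the EZM8266 libraries lay among the olaparib libraries (log2 fold change 0.67 ± 0.14, edgeR adjusted p 0.0394). It was not called without the olaparib factor in the model, with the replicate block or with DESeq2, and it kept its call in 8 of 19 other settings. Cxcl10 and Rnf213 are 2 of the 6 called rows with an unadjusted p under 0.05 for olaparib itself (log2 fold change for olaparib 0.70 ± 0.14 and 0.31 ± 0.08), none of which passed adjustment for olaparib.

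The rest of the interferon list did not pass. Usp18, a protease that removes ISG15 from proteins (Gm44148 row), had a log2 fold change of 1.598 ± 0.38 from 1 to 27 counts per library (edgeR adjusted p 0.0803), and the row on the strand of Irf1, a transcription factor of the response (Gm17334 row), averaged 229 ± 11.8 CPM with EZM8266 and 182 ± 5.88 CPM without it (SD, n = 4 each, 0.33 ± 0.09, adjusted p 0.15). Read on the members' own rows, the list had 13 tested rows, 0 calls and a median of 0.24. Beside the list, Trim34a, a member of the antiviral TRIM family (Gm47248 row, chromosome 7, 104261465 to 104262174), was higher, with 34.05 and 21.9 CPM with EZM8266 and 46.3 and 40.9 CPM with the combination, against 16.9 and 14.6 CPM with olaparib and 11.8 and 14.2 CPM with DMSO (1.29 ± 0.23, adjusted p 0.0102). All 609 exon bases of that row lie in untranslated sequence of Trim34a. The Gm10552 row, inside the body of Sp140 and with no exon overlap, was also higher (1.26 ± 0.20, adjusted p 0.00469). In the MHC class I list, whose genes load peptides for display to T cells, 0 of 4 opposite-strand rows were called. All 4 were above 0 with a median of 0.22. Over all tested rows 0.737% were called and the median was -0.02, so lists this short would mostly hold no call. Other lists had opposite-strand medians on both sides of 0, with 0.24 for p53 targets and -0.13 for imprinted genes.

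Interferon-responsive promoters commonly carry an interferon-stimulated response element, and the promoter of Cxcl10 is shown because it holds one. Its 250 bases before the RefSeq start (GRCm38.p6, chr5:92348890-92349139, minus strand) run 5′ to 3′ with the match in capitals.
Cxcl10 promoter: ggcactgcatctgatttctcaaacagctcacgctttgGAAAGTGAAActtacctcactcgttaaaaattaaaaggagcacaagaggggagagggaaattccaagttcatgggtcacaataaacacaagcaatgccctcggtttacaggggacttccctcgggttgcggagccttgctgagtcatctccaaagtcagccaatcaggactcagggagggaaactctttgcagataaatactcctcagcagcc
The search took GAAA followed after any 2 bases by a further GAAA, on both strands of the 250 bases upstream. It is held by 2.98% of all 32851 promoters in the RefSeq table. Counted by gene, it is held by 936 of 27025 genes (3.46%) and by 17 of the 50 interferon list members that the table names. Among the genes of called higher rows, 27 are in the table, and 4 hold a match: Cxcl10, Tmem140, Selenop and the noncoding Gm36377. The promoters of Rnf213, Sp140 and Trim34a hold none in this window.

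**Figure D3:**
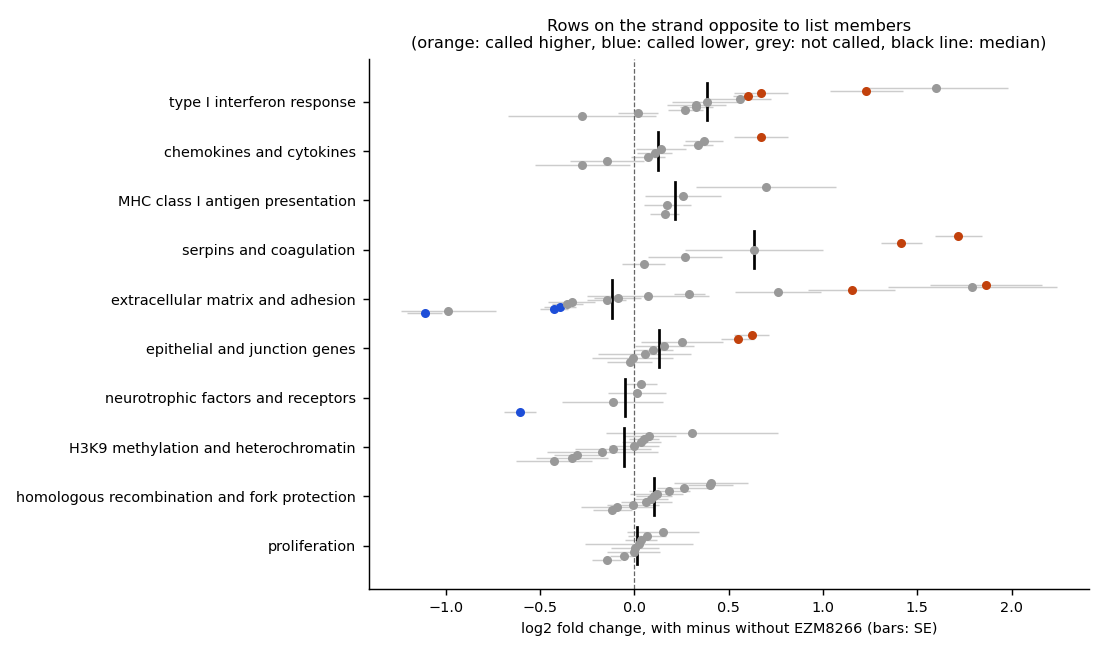
Log2 fold change of the EZM8266 main effect with its SE (horizontal axis) for rows on the strand opposite to members of 10 gene lists; each point is a row, orange called higher, blue called lower, grey not called, and the black line is the list's median. The interferon list has 3 and the serpin and coagulation list 2 orange points, matrix genes lie on both sides of 0, and the H3K9 methylation, recombination and proliferation lists have no called row.

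Among called rows with at least 5 counts in every library, the largest fold change lay on the strand of Trdc. It encodes the T cell receptor delta constant region, at a locus that only T cells normally rearrange and use. The Gm43434 row (chromosome 14, 54128298 to 54146287) had 36.3 and 59.7 CPM with EZM8266 and 50.4 and 56.5 CPM with the combination, against 7.36 and 4.07 CPM with olaparib and 6.86 and 6.18 CPM with DMSO. These are 48 to 60 counts in each library with EZM8266 and 5 to 10 in each without it, a log2 fold change of 3.02 ± 0.26 (SE) at an edgeR adjusted p of 9.2e-06. The row passed the low-count filter only through its libraries with EZM8266, which favours a large fold change. The overlap with Trdc is 96 of 676 exon bases. Defining T and NK cell markers were at or near 0 on their own rows: Cd3e and Trbc1 had 0 counts in every library, and Cd3d, Cd3g, Lck and Ptprc had at most 2. Of the 23 marker rows in the table, 21 held at most 6 counts in any library. The exceptions were Cd5, with 3 to 11 counts, and Cd247, whose row overlaps an opposite-strand exon and held 400 to 592. On all 23 own rows together, of which Cd247 gave the most, the list summed to 383 to 445 CPM with EZM8266 and 360 to 428 CPM without it. Of 18 ovarian surface epithelium and mesothelium markers, 6 own rows passed the filter: Ezr with 51 to 141 counts, Wt1 with 13 to 58, Krt19 with 14 to 53, Krt18 with 10 to 40, Krt8 with 6 to 23 and Bnc2 with 3 to 14. The other 12 held at most 13 counts in any library, and Krt7, Bnc1, Lrrn4, Aldh1a2, Igfbp5 and Gpm6a held at most 2. These own rows count the strand opposite to the transcript, so low counts there do not measure how much of these genes was expressed.

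Genes of transport and metabolism were among the rises. Abcb1a, a drug efflux pump of the P-glycoprotein family (Gm42686 row, chromosome 5, 8731661 to 8735768), had 49.9 and 43.8 CPM with EZM8266 and 48.3 and 52.6 CPM with the combination, against 15.4 and 21.1 CPM with olaparib and 15.7 and 16.7 CPM with DMSO. No library of either kind reached the other, and the log2 fold change was 1.50 ± 0.18 (SE, edgeR adjusted p 0.000564). The overlap with Abcb1a is 553 of the 4108 exon bases of the row (13.5%), and the counts may lie elsewhere in it. Its paralogue Abcb1b was not called (Gm5106 row, 32.1 ± 4.58 CPM with EZM8266 and 28.2 ± 6.84 CPM without it, SD, n = 4 each, 0.20 ± 0.21), and the list of ABC transporters and drug metabolism had 1 call in 4 opposite-strand rows. Smpd3, a neutral sphingomyelinase that makes ceramide (Prmt7 row, chromosome 8, 106210936 to 106252794), had 212 and 203 CPM with EZM8266 and 182 and 157 CPM with the combination, against 104 and 88.6 CPM with olaparib and 119 and 109 CPM with DMSO (0.84 ± 0.10, adjusted p 0.000531). It was the only call among 8 opposite-strand rows of the cholesterol and lipid list. For both lists, the share called among all tested rows with an opposite-strand exon was 0.985%. The overlap with Smpd3 is short, 247 of the 6125 exon bases of the Prmt7 row (4.03%). The Gm20528 row overlaps the shared exons of the Ugt1a cluster, which encodes enzymes that add glucuronic acid to drugs and bilirubin. It was higher by 0.91 ± 0.16 (adjusted p 0.0107), and its counts cannot be assigned to 1 of the 9 Ugt1a genes. Selenop, the plasma selenium carrier, was higher (Ccdc152 row, 0.70 ± 0.12, adjusted p 0.00982). The Nme7 row was lower by 0.42 on the log2 scale (SE 0.09, adjusted p 0.028) and overlaps Atp1b1, the beta subunit of the sodium pump, and Blzf1. These overlaps are 575 and 189 of its 5876 exon bases.

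Rows of 2 neurotrophic factors rose, and the strand of another neuronal protein fell. Gdnf, a secreted factor that supports neurons and kidney development (own row, chromosome 15, 7810846 to 7837575), had 360 and 406 CPM with EZM8266 and 446 and 451 CPM with the combination, against 205 and 213 CPM with olaparib and 169 and 190.2 CPM with DMSO. All libraries with EZM8266 were above all without it, with a log2 fold change of 1.09 ± 0.09 (SE) at an edgeR adjusted p of 4.31e-06. No gene is annotated on the other strand of Gdnf, so it is not known which transcript these fragments come from. The Bdnf row, which overlaps 896 bases of the antisense gene Gm45346, held 5 to 24 counts per library, with 19.3 ± 4.43 CPM with EZM8266 and 6.17 ± 1.91 CPM without it (SD, n = 4 each, 1.64 ± 0.33, adjusted p 0.0258). That row counts the strand opposite to the Bdnf transcript, so it does not measure how much Bdnf was expressed. Fragments on the strand of Nrn1, the neurite-promoting protein neuritin (Fars2 row, chromosome 13, 36117412 to 36726280), were at 434 and 421 CPM with EZM8266 and 403 and 393 CPM with the combination, against 703 and 613 CPM with olaparib and 592 and 609 CPM with DMSO (fell by 0.61 ± 0.09, adjusted p 0.00162). Of the 5747 exon bases of the Fars2 row, 501 (8.72%) overlap Nrn1 and 115 (2%) overlap Lyrm4. The counts may come from either gene or lie elsewhere in the row. In the neurotrophic list, 2 of 4 own rows were called higher and 1 of 4 opposite-strand rows lower. Among all tested rows 0.737% were called, and the list was chosen with earlier results of these data known. The row of Basp1, a growth cone protein, with no annotated partner, was higher by 0.80 ± 0.16 (adjusted p 0.0307), from 150.6, 78.6, 126 and 126 CPM with EZM8266 or the combination, against 66.2 to 72.5 CPM without it.

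In the epithelial and junction list, 2 of 8 opposite-strand rows were called higher and 6 were above 0. The median was 0.13, against -0.02 over all tested rows. The share called was 0.985% among all tested rows with an opposite-strand exon and 0.737% among all tested rows. Lsr, a receptor of tricellular junctions (Gm4673 row, chromosome 7, 30956909 to 30961619), had 371 and 429 CPM with EZM8266 and 424 and 398 CPM with the combination, against 270.0 and 250.5 CPM with olaparib and 242 and 289 CPM with DMSO (log2 fold change 0.62 ± 0.09, SE, edgeR adjusted p 0.00274). The Gm15657 row, which overlaps Heg1, a regulator of vascular junctions, and the mucin Muc13, was higher by 0.55 ± 0.09 (adjusted p 0.00469). On the list's own rows, 1 of 11 was called. It was that of Pax8, a transcription factor of kidney, thyroid and the female reproductive tract, and overlaps 367 bases of the noncoding Gm13415. The row counts the strand opposite to the Pax8 transcript, so it does not measure how much Pax8 was expressed. It passed the low-count filter only through libraries with EZM8266. It had 28.8 and 46.7 CPM with EZM8266 and 18.1 and 27.3 CPM with the combination, against 2.94 and 7.32 CPM with olaparib and 2.94 and 3.09 CPM with DMSO (2.85 ± 0.38, adjusted p 0.0013).

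The rises also took in a linker histone and several signalling and membrane genes. H1f0, the linker histone of slowly dividing and differentiated cells (Gm49544 row, chromosome 15, 79026456 to 79028612), had 760.4 and 1090 CPM with EZM8266 and 868 and 1012 CPM with the combination, against 553 and 622 CPM with olaparib and 586 and 497 CPM with DMSO (log2 fold change 0.73 ± 0.11, SE, edgeR adjusted p 0.00349). It was the 1 call among 13 opposite-strand rows of histone genes, which had a median of 0.09. Among all tested rows with an opposite-strand exon, 0.985% were called. The overlap with H1f0 is short, 163 of the 2157 exon bases of the Gm49544 row (7.56%). Tmem140, a small membrane protein, was higher by 0.78 ± 0.11 (Cyren row, adjusted p 0.00162), Pim1, a survival kinase, by 0.53 ± 0.10 (Gm26885 row, adjusted p 0.0209), and Pllp, the membrane protein plasmolipin, by 0.76 ± 0.14 (Gm45767 row, adjusted p 0.0125). Ankrd44, an ankyrin repeat protein of a phosphatase complex, was higher by 0.68 ± 0.14 (4930444A19Rik row, adjusted p 0.0338). The row on the strand of Ica1l was higher by 1.75 ± 0.34 (Fam117b row, adjusted p 0.023), with 31.0 and 35.8 CPM with EZM8266 and 19.14 and 14.6 CPM with the combination, against 8.83 and 8.94 CPM with olaparib and 3.92 and 6.79 CPM with DMSO. Of the 7290 exon bases of the Fam117b row, 473 (6.49%) overlap Ica1l.

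The other 15 called rows are noncoding, pseudogenic, predicted or without an informative partner. The most abundant was on the strand of the noncoding Gm20186 (Gm26809 row, chromosome 6), with 1588 and 1963 CPM with EZM8266 and 1744 and 1813 CPM with the combination, against 976 and 1167 CPM with olaparib and 1090.0 and 995 CPM with DMSO (log2 fold change 0.75 ± 0.09, SE, edgeR adjusted p 0.000459). The largest fold change of all called rows, 3.29 ± 0.56, belonged to the Gm11216 row on chromosome 4, which held 13 to 18 counts per library with EZM8266 and 0 to 5 without it. Gm49314 was higher by 2.26 ± 0.36, from 17 to 30 counts with EZM8266 and 3 to 10 without it. The Gm11216 and Gm49314 rows passed the low-count filter only through libraries with EZM8266, which favours large fold changes. The Gm49398 and Cts8-ps rows on chromosome 13 were higher by 1.98 ± 0.39 and 1.88 ± 0.37. They lie on 1 strand with overlapping spans and can share fragments, so they are not separate evidence. Art2a-ps, a pseudogene of an ADP-ribosyltransferase, was higher by 1.70 ± 0.32, and Fndc9, a row inside the body of Cyfip2, by 1.82 ± 0.39. Gm9732 (Gm8127 row), Gm36377 (D030007L05Rik row), Gm45187 (Uvrag row), C130026I21Rik (A530040E14Rik row), 4833427F10Rik, 4932411K12Rik and Gm30246 were higher by 1.01 to 1.80. The Gm11336 row, which overlaps the microRNA gene Gm44314, was called lower by 3.47 ± 0.69 on the log2 scale (adjusted p 0.0242), but it was high in the olaparib libraries only. It held 0 and 1 counts with EZM8266 and 1 and 1 with the combination, against 18 and 28 with olaparib and 2 and 2 with DMSO, so the fall is between the combination and olaparib and not between EZM8266 and DMSO, where both sides are at or under 3 counts.

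Several lists that bear on the 2 compounds had no called row. Among all tested rows 0.737% were called, so a list of so few rows would mostly have none. The absence of calls therefore says little about these genes. Genes of H3K9 methylation and heterochromatin had 0 calls in 16 own rows and 0 in 10 opposite-strand rows (medians -0.04 and -0.06, against -0.02 over all tested rows). Setdb1, another H3K9 methyltransferase, had a log2 fold change of 0.08 ± 0.14 on the Cers2 row, and Suv39h1, the enzyme of constitutive heterochromatin, 0.05 ± 0.08 on the Gm14820 row. PARP family genes had 0 calls in 6 rows in each reading (medians 0.30 on own and 0.18 on opposite-strand rows). Homologous recombination genes, which repair the breaks that PARP inhibitors leave, had 0 in 16 own and 0 in 11 opposite-strand rows (medians 0.05 and 0.11). Of the germline list, 1 own row (log2 fold change 0.45) and 0 opposite-strand rows passed the filter, with 0 calls, so that part of known EHMT biology was not measurable here. The imprinted genes, some of which are controlled by H3K9 methylation in early development, had 0 calls in 11 own and 16 opposite-strand rows (medians -0.18 and -0.13). Nucleic acid sensing, proliferation, p53 target, unfolded protein, autophagy, hypoxia and mitochondrial genome lists also had 0 calls. The p53 target list had medians of -0.20 on 7 own rows and 0.24 on 6 opposite-strand rows. For a thinly covered row the median SE was 0.31, against 0.10 for the 1329 rows averaging 100 counts or more, so small changes in thin rows were not detectable at this depth.

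The EZM8266 effect was estimated separately without olaparib (EZM8266 minus DMSO) and with it (combination minus olaparib), in comparisons that share no library. Over the 47 called rows the median log2 fold change was 1.16 for EZM8266 minus DMSO in absolute size and 1.16 for combination minus olaparib. These rows were called on an effect that averages both comparisons, which favours rows of similar size in both. All 47 had the same sign in both, which for the 46 rows whose groups do not overlap follows from that lack of overlap. The test of the difference, the interaction, called 0 of 6379 rows (edgeR, smallest adjusted p 0.196), with 103 rows at an unadjusted p under 0.05 and 1 row called by DESeq2. Chance alone would give more than 103 rows at that unadjusted p. Of the called rows, 2 had an unadjusted interaction p under 0.05. Serpinb9b had 1.99 ± 0.16 without olaparib and 1.45 ± 0.15 with it (unadjusted interaction p 0.0274), and Ica1l had 2.55 ± 0.41 and 0.92 ± 0.42 (unadjusted p 0.0173).

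**Figure D4:**
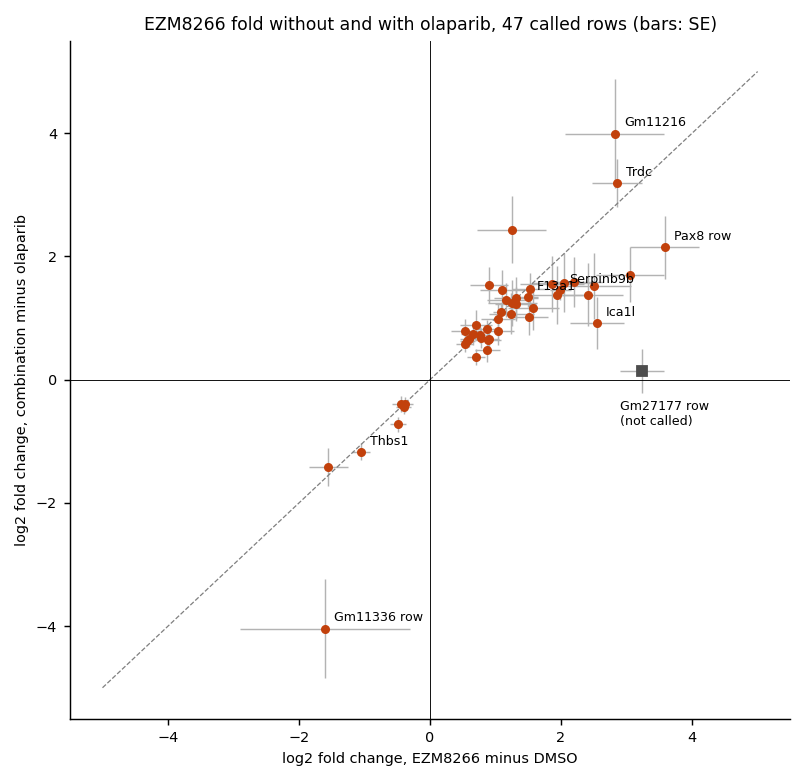
Log2 fold change of combination minus olaparib (vertical axis) against that of EZM8266 minus DMSO (horizontal axis), with SE bars, for the 47 called rows (orange) and the uncalled Gm27177 row (grey square); the dashed line marks equal values. The called rows were picked on the average of both comparisons, and most lie near the line. Ica1l at 2.55 and 0.92 lies below it, and the Gm27177 row has 3.23 without olaparib and 0.14 with it.

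The row nearest to an interaction was not a main-effect call. The Gm27177 row (chromosome 14, 69582164 to 69683286) overlaps exons of Entpd4b, which hydrolyses nucleotides, and of Loxl2, a matrix cross-linking enzyme, so its counts cannot be assigned to either alone. It had 113 and 75.6 CPM with EZM8266 and 20.1 and 23.4 CPM with the combination, against 19.13 and 20.3 CPM with olaparib and 5.88 and 12.97 CPM with DMSO. Both EZM8266 libraries were far above all others, and the combination libraries overlapped the olaparib libraries. The interaction was -3.09 ± 0.49 (SE, unadjusted p 3.07e-05, edgeR adjusted p 0.196), and the main effect had an adjusted p of 0.105.

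Just outside the threshold, the nearest rows were on the strands of Htr1b, a serotonin receptor (D430036J16Rik row, log2 fold change 0.60 ± 0.13, edgeR adjusted p 0.0508), and Pdgfa, a growth factor for mesenchymal cells (6330403L08Rik row, 0.69 ± 0.15, adjusted p 0.0508). Just inside it were P3h2 and Cxcl10, both at 0.0394. The next rows after Pdgfa included Lctl, Npr1 (a natriuretic peptide receptor), Tmem63a and Fn1, at adjusted p 0.0635 to 0.0667.

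The called rows lay at 42 loci when rows closer than 1000000 bases were joined, and 4 loci held more than 1. Chromosome 13 had 9 called rows, 7 higher and 2 lower, of 288 tested (3.12%), against 0.737% over all rows. Its rows sit at 7 of those loci, so they are not 1 neighbourhood. On chromosome 1, the Sp140 (Gm17017) and Gm10552 rows and the A530040E14Rik row lie within 85105946 to 85650585. No tested row with its midpoint within 500000 bases of that of the Serpinb9b, Gdnf, Trdc, Abcb1a or Rnf213 row was called. These had only 1, 2, 3, 4 and 6 tested neighbours, in that order. With 0.737% of all rows called, so few neighbours would mostly hold no call. The median log2 fold change of the neighbours was 0.12 around Serpinb9b, -0.28 around Gdnf, 0.36 around Trdc, 0.06 around Abcb1a and 0.03 around Rnf213.

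For the genes that lend their strand to a called row, their own rows were mostly too thin to test, since these count the other strand. Among protein-coding genes with a tested own row, it was called for Thbs1. The Thbs1 and Gm29233 rows overlap each other, so each is read through the other, and both were called. The own row of Ncam1 had the sign of its called row (fold change of -0.79 ± 0.22 on the log2 scale, unadjusted p 0.00251, edgeR adjusted p 0.167), and so did that of Mmp24 (0.35 ± 0.09, unadjusted p 0.00221, adjusted p 0.157). The own rows of Tmem140 (0.01 ± 0.11), Lsr (0.05 ± 0.17) and Smpd3 (0.03 ± 0.20) were near 0, while the rows on their other strand had been called higher. Neither reading alone measures these transcripts.

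Library measures that could move with EZM8266 did not pass an exact permutation test over 4 libraries against 4, two-sided, whose smallest possible p is 0.0286. After adjustment over 6 measures, a single measure could not pass even if fully separated, so the lack of a pass says little. Libraries with EZM8266 had 16504 ± 683 rows with at least 1 count, against 18246 ± 1045 without it (SD, n = 4 each, exact permutation p 0.0571, 0.343 adjusted over 6 measures). They held 973382 to 1294195 counts, against 1055309 to 1680974 without it, and the numbers of rows were not adjusted for depth. The share of counts on rows with an opposite-strand exon was 87.2 ± 0.72% with EZM8266 and 85.9 ± 2.18% without it (exact permutation p 0.343). The satellite-rich Gm10800 row took 0.0921 to 0.439% of counts with EZM8266, and 2.25% in DMSO replicate 1 and 1.86% in olaparib replicate 2, against 0.0706 and 0.103% in the other libraries without EZM8266. The sample-sheet numbers in the labels run from 33 to 36 with EZM8266 and from 41 to 44 without it, so those number blocks and EZM8266 cannot be told apart.

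The count of called rows depended on single libraries more than its leading rows did. Leaving out 1 library gave 26 (without DMSO replicate 1) to 53 (without EZM8266 replicate 2) calls, with 28 without combination replicate 2 or without olaparib replicate 1. With both Gm10800-rich libraries left out, DMSO replicate 1 and olaparib replicate 2, there were 13 higher and 3 lower. Of the 47 rows, 22 kept their call whichever library was left out, among them Serpinb9b, F13a1, Gdnf, Thbs1, Trdc, Smpd3, Abcb1a, Rnf213, Nrn1, Lsr, H1f0, Sp140, Heg1 and Mmp24, and 14 kept it in all 19 other settings. Cxcl10, Trim34a, Nid1, Bdnf, Pim1, Gm30246 and 4932411K12Rik each kept it in 2 of the 8 settings that leave out 1 library, and Basp1, Fndc9 and P3h2 in 1. The share of higher calls was 85.1% in the reported setting. It was 66.7% with no low-count filter (60 rows higher and 30 lower), 65.3% with the strand share of the Rmrp row as a covariate (64 and 34), 67.9% with the crossed block (89 and 42) and 71.1% without DMSO replicate 2 (27 and 11), but 85.2% at 1 CPM in at least 4 libraries (52 and 9) and 85.7% with DESeq2 (42 and 7).

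**Figure D5:**
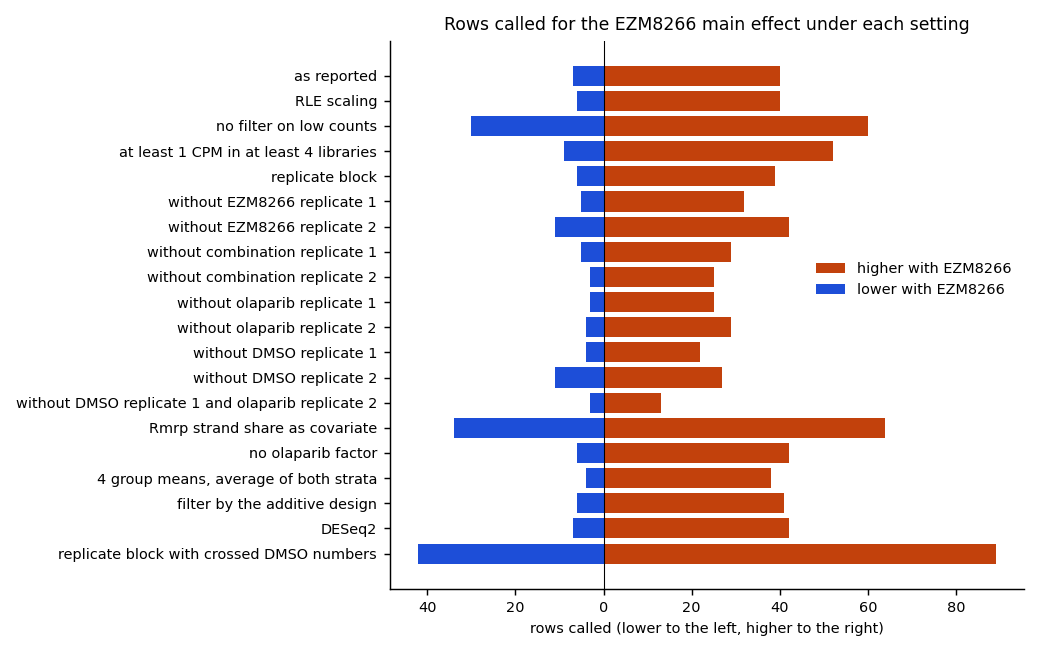
Number of rows called higher (right, orange) and lower (left, blue) with EZM8266 under the reported settings and 19 others. The reported 40 and 7 shrink to 13 and 3 without DMSO replicate 1 and olaparib replicate 2, and reach 89 and 42 when the block crosses the DMSO replicate numbers, a setting chosen after the data were seen.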

How the data were processed

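Per the labels' protocols, ribosome-depleted RNA (500 ng) was made into libraries with the KAPA mRNA HyperPrep kit, amplified for 11 cycles and read as pairs of 150 bases. Per the submitters' processing notes, HISAT2 2.1.0, Subread 1.6.2, FastQC 0.11.8, MultiQC 1.7 and mm10 were used. The deposited table holds whole-number counts per gene, not normalized; per the file headers, featureCounts assigned fragments to exons of GENCODE M18 genes with strand setting 1, counting a fragment for every gene it overlapped. The counts lie mostly in rows opposite to an annotated exon. The 54146 rows were named from GENCODE M21, which left 67 unnamed. The exon lengths in the deposited table were used as the authors gave them. All per-sample columns were used.

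The counts were fitted with edgeR 4.0.16 (R 4.3.3) with TMM scaling, filterByExpr (minimum count 10, minimum total 15) and an additive model of EZM8266 and olaparib. The interaction came from a model with 4 group means. The call threshold was an adjusted p (Benjamini-Hochberg) of 0.05, and the code was tested on simulated data. SE is the absolute log2 fold change over the square root of F. The named-gene rule took up to 15 called rows of each direction with a mean of at least 5 CPM and no overlap between groups, plus up to 4 members of each list; the remaining called rows were added after their values were seen. Members and lists were chosen with earlier results of these data known. Intervals on the assigned share (Wilson, 95%) were narrow (4.53 to 4.55% for the library with the lowest share) and cover counting error only. DESeq2 1.42.0, other scaling, filters, models, a replicate block and libraries left out were tried as alternatives. Replicate numbers were not taken to pair libraries.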

Additional observations from a re-analysis of the deposited data

Results flagged for a closer look

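In each case below, 1 library stood apart from the other 3 that shared its EZM8266 status by Dixon's criterion for 4 values. Of 106 groups of 4 libraries examined, 6 held such a library, and chance gives about 1 in 20. On the strand of Serpinb9b (Gm36099 row), EZM8266 replicate 2 had 441 CPM, against 355 to 366 CPM in the other libraries with EZM8266. On the strand of Thbs1 (Gm29233 row), the same library had 398 CPM, against 303 to 317 CPM, and so was the least lowered. The Pax8 row and the row on the strand of Sp140 were highest among the libraries without EZM8266 in olaparib replicate 2, at 7.32 and 34.2 CPM. The row on the strand of Pllp (Gm45767) was highest among them in olaparib replicate 1, at 66.2 CPM. The Gm11336 row had 0 CPM in EZM8266 replicate 1, against 0.975 to 1.01 CPM in the other libraries with EZM8266, which is a difference of 1 count.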

How the results depend on the processing

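Counts of called rows changed by over 1.5 times in several settings, and no row called in the main setting changed direction in any of them. In place of 47 rows (40 higher and 7 lower), 90 were called with no filter on low counts (60 higher, 30 lower), 98 with the Rmrp strand share as a covariate (64 and 34), 131 when the block crossed the DMSO numbers, added after seeing the data (89 and 42), and 16 without DMSO replicate 1 and olaparib replicate 2. Single libraries left out gave 26 to 53, with 27 higher and 11 lower without DMSO replicate 2. The planned replicate block called 45 (39 and 6) and lost Cxcl10 and P3h2; same-numbered deviations from the group mean correlated at -0.305 to -0.143 between DMSO and the other groups and at 0.212 to 0.287 among those groups, so the numbers do not pair all libraries. DESeq2 called 49, of which 46 were shared. The interaction had 0 calls, but 7 with no filter, 1 at 1 CPM in 4 libraries, 1 with the Rmrp covariate, 1 with DESeq2 and 3 with the crossed block. Olaparib had 0, but 11 with no filter and 2 with the Rmrp covariate. The cause was not tested. Library differences with minus without EZM8266 moved too. Without DMSO replicate 1 and olaparib replicate 2, the opposite-strand exon share differed by -0.492, the Gm10800 share by 0.117 and the mitochondrial share by 0.290 percentage points, each of opposite sign to the main value. With single libraries left out these spanned 0.542 to 2.15, -1.20 to -0.475 and -0.135 to 0.0860 percentage points; the mitochondrial share turned positive without EZM8266 replicate 1 (0.0550), combination replicate 1 (0.0795), olaparib replicate 2 (0.0755) or DMSO replicate 1.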
